A study of Mus musculus with 4 samples.

Results

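The S100 genes encode small calcium-binding proteins that work mostly as dimers, each subunit carrying a pair of EF-hand calcium-binding loops. Calcium opens the dimer, which then docks onto partner proteins such as annexins and myosin. Several family members are also released from cells and act on receptors of their neighbours. In mammary tumours the family is known for S100A4, which takes part in migration and metastasis, and for S100A8 and S100A9, the calprotectin subunits that neutrophils carry in large amounts. The members described here are 10 genes taken by symbol: S100a1, S100a4, S100a6, S100a8, S100a9, S100a10, S100a11, S100a13, S100a14 and S100a16. All 10 were found among the 24411 genes listed in each of the 4 libraries. A filter of at least 1 TPM in at least 2 libraries kept 8 of the 10 among 11167 tested genes, and left out S100a8 and S100a9. TPM is a transcript's abundance corrected for its length and scaled so that every library has the same total, which permits levels of different genes to be compared.

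The libraries came from 4T1, an established mouse mammary carcinoma line, and the series asks what changes when CD95, the death receptor encoded by Fas, is disrupted. The 2 control libraries are called control 1 and control 2, with the genotype given as control. The other 2 are labelled CD95ko 1 and CD95ko 2. Per the labels' protocols the knockout cells carry a lentiviral Cas9 with blasticidin resistance and received a pair of guide RNAs against exon 9 of the gene, and each line is the offspring of 1 sorted cell. The protocols name an untransduced control and a Cas9-expressing line as RNA sources, and the titles do not say which control is which. Each knockout line is thus a single clone, and differences between clones and the effect of the knockout cannot be told apart. Nothing in the labels says that any line was sampled more than once, so p-values measure only the spread between these 4 libraries. Sequencing depth is unknown from TPM, and a gene at 0 is described as listed at 0.

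Fas was listed at 49.4 and 39.2 TPM in the controls, at 15.8 TPM in the library labelled CD95ko 1 and at 49.5 TPM in the library labelled CD95ko 2. The level of Fas in the library labelled CD95ko 2 was near that of the controls and does not bear out its label. A gene-level value does not show whether exon 9 is present, so directions below refer to the libraries as labelled. Markers of mammary carcinoma epithelium (Krt7, Krt8, Krt18, Krt19, Epcam, Cdh1 and 4 others) were tested for 10 of 10 genes and summed to 6778 and 6307 TPM in the controls against 10183 and 14367 TPM in the libraries labelled CD95ko. Of 15 neutrophil and myeloid markers found, 11 were listed at 0 in all 4 libraries, among them the leukocyte gene Ptprc and the granule genes Mpo, Elane, Camp and Ngp. Ltf, another granule gene, was listed at 4.86 TPM in the library labelled CD95ko 2 and at 0 in the other libraries. The myeloid list summed to between 48.5 and 225 TPM, highest in the library labelled CD95ko 2, where Cd68 reached 146 TPM and Itgb2 68.5 TPM. Csf1r, the 1 tested marker of this list whose groups did not overlap, was listed at 1.22 and 0 TPM in the controls, at 22.2 TPM in the library labelled CD95ko 1 and at 5.07 TPM in the library labelled CD95ko 2. Its difference between the groups had a limma adjusted p of 0.164. Fibroblast markers summed to between 0.97 and 4.52 TPM, and the 3 endothelial markers were listed at 0.

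All 10 genes lie on chromosome 3 in RefSeq (GRCm38.p6). A run of 8 genes spans 184.7 kb from 90511034 to 90695721, in the order S100a1, S100a13, S100a14, S100a16, S100a4, S100a6, S100a8 and S100a9. S100a11 and S100a10 form a second run of 44.1 kb from 93520496 to 93564645. The coding transcripts of the 8 tested members are short, with a median of 612 nucleotides in GENCODE M21. The median was 2119 for the 10430 tested genes (93.4%) whose coding transcript length was found there. Genes with coding transcripts under 1000 nucleotides, as a class, had a median absolute difference between the controls of 0.39 on the log2 scale, against 0.45 for longer ones. Between the libraries labelled CD95ko these medians were 0.53 and 0.50.

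RefSeq promoter windows, from 250 bases before to 50 bases after a start site, were at hand for 8 of the 10 genes, in 9 windows because S100a16 has 2 start sites. No window was at hand for S100a10 or for S100a14, the member with the largest difference between the groups. Shown here are the 250 bases upstream of S100a16, S100a4 and S100a1. S100a16 had one of the 2 largest differences between the groups, S100a4 varied most between libraries of the same label, and S100a1 starts back to back with S100a13, whose level did not follow it. In the S100a16 and S100a4 sequences capitals mark matches to 5 short motifs searched on both strands. In the S100a1 sequence capitals mark the 104 bases that separate its start from that of S100a13 on the opposite strand.
S100a16 first start, chr3:90537004-90537253, plus strand: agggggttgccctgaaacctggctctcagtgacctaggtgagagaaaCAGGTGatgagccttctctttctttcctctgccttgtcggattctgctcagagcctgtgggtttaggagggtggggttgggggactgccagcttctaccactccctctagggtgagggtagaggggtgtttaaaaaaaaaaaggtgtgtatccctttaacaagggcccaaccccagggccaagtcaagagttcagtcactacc
S100a16 second start, chr3:90540896-90541145, plus strand: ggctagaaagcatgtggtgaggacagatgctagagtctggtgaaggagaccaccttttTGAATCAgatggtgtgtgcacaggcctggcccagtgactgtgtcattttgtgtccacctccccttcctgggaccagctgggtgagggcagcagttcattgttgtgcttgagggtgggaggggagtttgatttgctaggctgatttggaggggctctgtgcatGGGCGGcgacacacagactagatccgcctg
S100a4, chr3:90603520-90603769, plus strand: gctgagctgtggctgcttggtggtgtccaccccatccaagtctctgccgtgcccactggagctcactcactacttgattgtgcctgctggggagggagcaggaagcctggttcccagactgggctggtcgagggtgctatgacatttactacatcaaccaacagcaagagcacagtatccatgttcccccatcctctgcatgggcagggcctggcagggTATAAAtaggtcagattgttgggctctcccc
S100a1, chr3:90514331-90514580, minus strand: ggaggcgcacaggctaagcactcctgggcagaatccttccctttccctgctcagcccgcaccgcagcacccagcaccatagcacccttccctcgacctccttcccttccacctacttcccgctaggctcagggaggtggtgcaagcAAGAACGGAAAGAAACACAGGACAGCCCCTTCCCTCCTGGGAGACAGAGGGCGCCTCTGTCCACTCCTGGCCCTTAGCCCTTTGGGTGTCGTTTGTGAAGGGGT

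The motifs were TATAAA (the TATA box), GGGCGG (the GC box), TGANTCA (AP-1), CAGGTG (an E-box read by Snail and Zeb factors) and GGGANNTTC (NF-kB). S100a4 has TATAAA 31 bases before its start, and none of the other 4 motifs. The first S100a16 start has CAGGTG 203 bases upstream. The second has GGGCGG 30 bases upstream and TGAATCA, a match to TGANTCA, 192 bases upstream. The S100a1 and S100a13 windows hold none of the 5. Over 32544 promoter windows of the same length, 13.6% hold TATAAA, 35.9% GGGCGG, 7.79% TGANTCA, 20.3% CAGGTG and 3.94% GGGANNTTC. Among the 9 member windows the numbers were 3, 3, 2, 2 and 1 in the same order, the NF-kB match being in S100a9. The TATAAA match of S100a9 begins at the start site itself, not upstream of it. These are matches of letters, not measured binding.

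The family covered a wide range of levels in 4T1 cells, from transcripts among the most abundant of the cell to genes listed at 0. S100a6 had the highest mean, 3490 TPM over the 4 libraries, followed by S100a10 (1908 TPM), S100a11 (841 TPM) and S100a4 (537 TPM). S100a1 followed at 130 TPM, S100a13 at 41.8 TPM, S100a14 at 28.8 TPM and S100a16 at 9.66 TPM. S100a6 ranked between 18 and 80 among all genes of a library. Over the 4 libraries the ranges of several neighbours in this order overlapped: S100a6 with S100a10, S100a11 with S100a4, S100a4 with S100a1, S100a13 with S100a14, and S100a14 with S100a16. S100a10 lay above S100a11 in all 4 libraries without overlap, and S100a1 above S100a13.

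**Figure D1:**
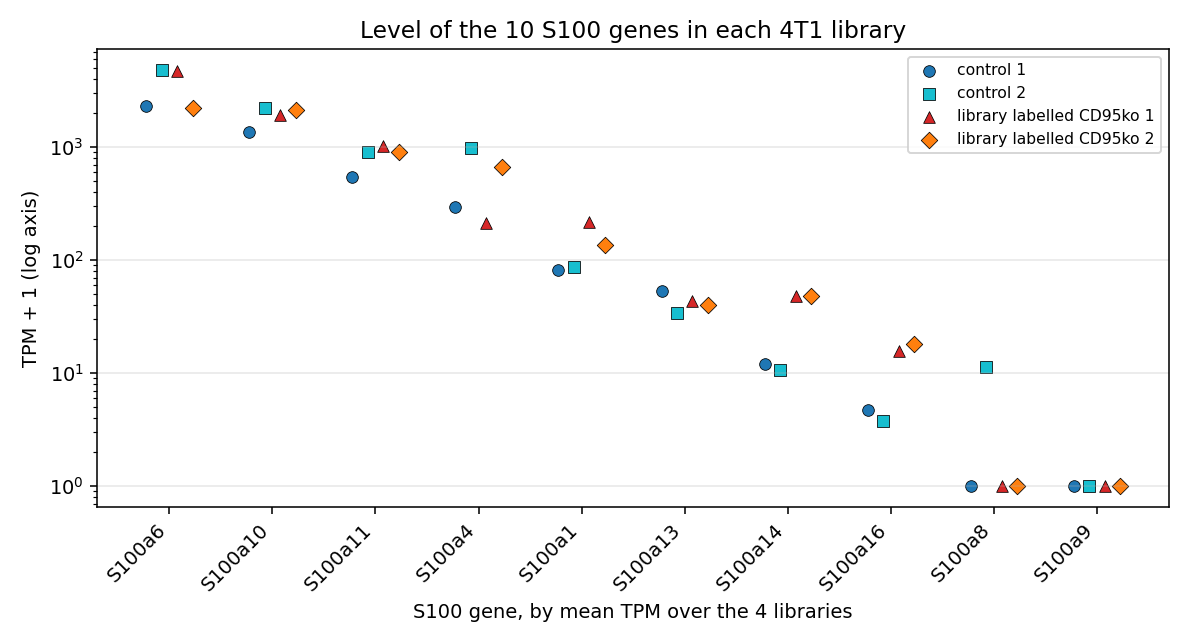
TPM + 1 on a log axis for the 10 S100 genes, ordered by their mean, with 1 point per library (control 1, control 2 and the libraries labelled CD95ko 1 and CD95ko 2). S100a14, S100a16 and S100a1 have both knockout-labelled points above both controls, S100a4 and S100a6 spread within each label, and S100a9 is listed at 0 throughout.

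Together the 10 genes took 4644 TPM in control 1, 9014 TPM in control 2, 8169 TPM in the library labelled CD95ko 1 and 6126 TPM in the library labelled CD95ko 2. These sums are 0.464%, 0.901%, 0.817% and 0.613% of the libraries. The groups overlapped, and the ratio of the CD95ko mean to the control mean was 1.05. The exact two-sided permutation test of 2 libraries against 2 cannot give a p-value under 0.33. The ratio was 1.54 without control 2 and 0.79 without control 1. S100a6 and S100a10 made up between 70.6% and 81.0% of each sum.

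The groups were compared with limma on log2(TPM + 1), with Benjamini-Hochberg adjustment over all 11167 tested genes. The limma SEs, intervals and p-values use variance information shared across genes (8.82 degrees of freedom), not the spread of each gene alone. A gene that varies much within a label can thus have a smaller SE than its own values would give, and a steady gene a larger one. None of the 8 tested members passed an adjusted p of 0.05, which 0.0537% of all tested genes did (6 genes). An unadjusted p under 0.05 was reached by 3 members (S100a14, S100a16 and S100a1), all with higher values in the libraries labelled CD95ko, and by 0 in the other direction. Of all tested genes, 9.25% reached it with higher and 5.68% with lower values. The higher genes were 62.0% of all those reaching it, but 51.9% under quantile normalization and 44.5% when the libraries were scaled to equal medians. The same 3 members had groups that did not overlap, all higher, where 29.2% of all tested genes were higher without overlap and 18.3% lower. The median log2 fold change of the 8 members was 0.34, against 0.13 for all tested genes. Quantile normalization moved these medians to 0.39 and 0.002, and median scaling to 0.13 and -0.06.

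**Figure D2:**
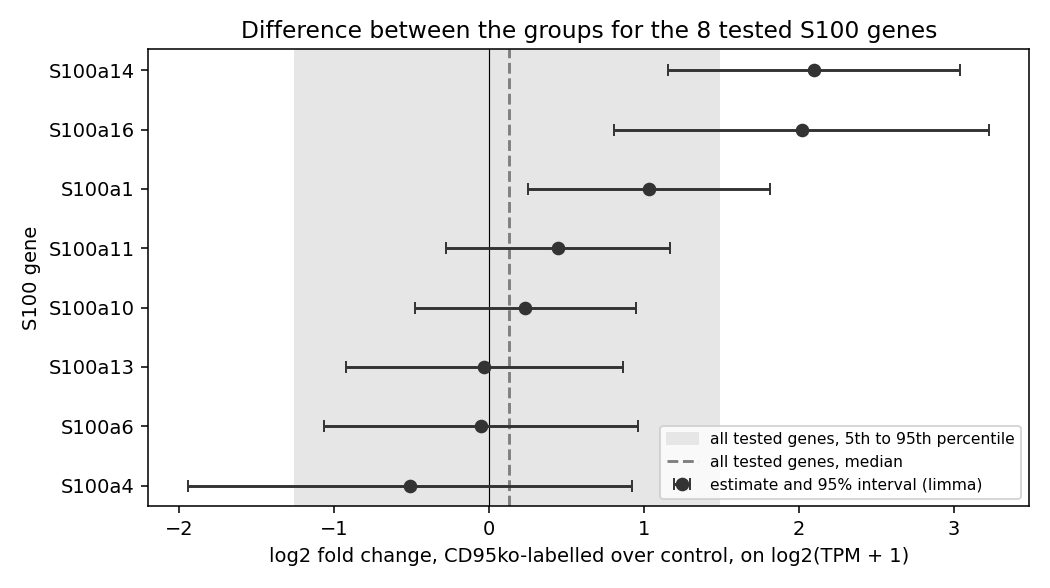
Log2 fold change of the libraries labelled CD95ko over the controls for the 8 tested S100 genes, with limma 95% intervals; the grey band runs from the 5th to the 95th percentile of all tested genes (-1.25 to 1.49) and the dashed line is their median (0.13). S100a14 and S100a16 lie right of the band, and the intervals of 5 genes include 0.

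S100a14, whose product is found mainly in epithelial cells, and S100a16, which is expressed in many tissues, are next to each other on the chromosome. S100a14 was listed at 11.03 and 9.58 TPM in the controls, at 47.0 TPM in the library labelled CD95ko 1 and at 47.5 TPM in the library labelled CD95ko 2. Both knockout-labelled values lay above both controls, and within each label the libraries were within 1.15-fold of each other. The mean was 4.58 times that of the controls, with a log2 fold change of 2.10 ± 0.42 SE, and limma gave an adjusted p of 0.109 (unadjusted 0.000753). S100a16 was listed at 3.74 and 2.74 TPM in the controls, and at 14.9 and 17.3 TPM in the libraries labelled CD95ko 1 and CD95ko 2. It too had no overlap, with a mean 4.96 times that of the controls and a log2 fold change of 2.02 ± 0.53 SE (limma adjusted p = 0.161). S100a14 and S100a16 were over 2-fold higher on the TPM + 1 scale in all 4 pairs of a knockout-labelled library and a control, as were 3.53% of all tested genes. Neither passed the threshold with all 4 libraries. Leaving out 1 library gave log2 fold changes of S100a14 from 2.00 to 2.19. Over the alternative settings that kept all 4 libraries, the limma adjusted p of S100a14 ranged from 0.0657 to 0.203. Of the 10 epithelial markers, 7 were higher and 1 (Cldn3) lower without overlap in the libraries labelled CD95ko, beside 29.2% and 18.3% of all tested genes. Of these markers, 0 passed an adjusted p of 0.05. Krt19, a simple-epithelium keratin, was listed at 189 and 209 TPM in the controls against 751 and 859 TPM. Epcam, an epithelial adhesion molecule, was listed at 179 and 166 TPM against 532 and 565 TPM. Their part in the S100a14 and S100a16 difference was not tested.

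The profile of S100a14 over the 4 libraries, as log2(TPM + 1) centred on its mean, was compared with those of the 11166 other tested genes. The nearest by Euclidean distance were Lfng, which encodes a Notch-modifying glycosyltransferase (distance 0.067), Gnmt, which encodes glycine N-methyltransferase (0.15), and Grb7, which encodes an ErbB2-binding adaptor (0.17). Lfng was listed at 2.66 and 2.34 TPM in the controls and at 14.1 and 14.7 TPM in the libraries labelled CD95ko. S100a16 was the nearest family member, at a distance of 0.19 and 5th among all genes. These distances rest on 4 libraries and are descriptive.

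S100a1, known mainly from heart and skeletal muscle where it acts on calcium pumps and release channels, was listed at 80.7 and 85.8 TPM in the controls. In the libraries labelled CD95ko 1 and CD95ko 2 it was listed at 217 and 135 TPM. The groups did not overlap, and the log2 fold change was 1.03 ± 0.34 SE (limma adjusted p = 0.234). The knockout-labelled pair differed by 1.60-fold, more than the controls did. S100a13, whose product takes part in the release of FGF1 and IL-1 alpha, which lack a signal peptide, begins 104 bases from S100a1 on the other strand. Its levels were 52.3 and 33.1 TPM in the controls and 42.6 and 39.0 TPM in the libraries labelled CD95ko 1 and CD95ko 2. Both of the latter lay between the 2 controls. Its log2 fold change was -0.03 ± 0.39 SE, with a 95% interval from -0.92 to 0.86. The full RefSeq gene model of S100a13 begins further upstream than this start and overlaps S100a1 by 98 bases, and whether the authors' quantification used strand is not given in the sources used here, so reads from the shared stretch may have been split between them.

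S100a4 and S100a6 varied mainly between libraries of the same label. S100a4, whose product binds non-muscle myosin IIA, was listed at 293 TPM in control 1, 976 TPM in control 2, 211 TPM in the library labelled CD95ko 1 and 667 TPM in the library labelled CD95ko 2. Control 2 was 3.33-fold above control 1, and the library labelled CD95ko 2 was 3.16-fold above the library labelled CD95ko 1. The groups overlapped, and the log2 fold change was -0.51 ± 0.63 SE with a 95% interval from -1.94 to 0.92. This SE rests on variance shared across genes, and it was 0.85 under robust eBayes and 0.32 with the replicate block. The sign of the S100a4 fold change varied with the libraries used, from -1.38 without control 1 to 0.36 without control 2. S100a6, or calcyclin, was listed at 2306 and 4783 TPM in the controls, and at 4676 and 2195 TPM in the libraries labelled CD95ko 1 and CD95ko 2. Here the controls differed by 2.07-fold and the knockout-labelled libraries by 2.13-fold. The high libraries were control 2 and the one labelled CD95ko 1, so the log2 fold change was close to 0 (-0.05 ± 0.45 SE, 95% interval -1.07 to 0.96), and it turned to 0.009 under quantile normalization.

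**Figure D3:**
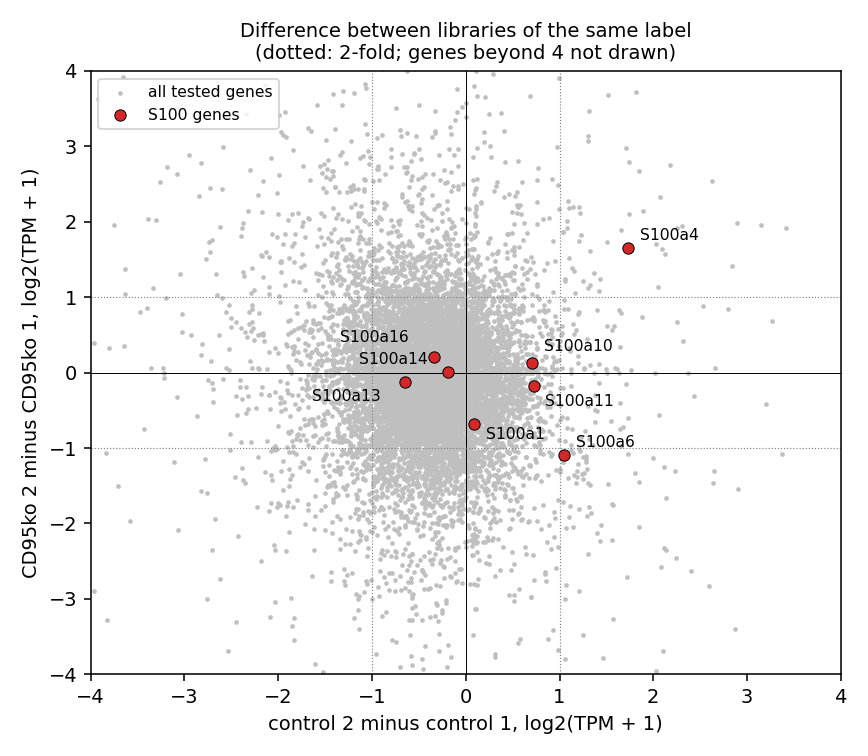
Difference between control 2 and control 1 (horizontal) and between the libraries labelled CD95ko 2 and CD95ko 1 (vertical), both in log2(TPM + 1), for all tested genes (grey) and the 8 tested S100 genes (red). S100a4 lies at 1.73 and 1.65, S100a6 at 1.05 and -1.09, and S100a14 and S100a16 lie near the centre.

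S100a4 and S100a6 were the 2 of 8 members over 2-fold apart between the controls on the TPM + 1 scale, as were 14.4% of all tested genes. The same 2 were over 2-fold apart between the knockout-labelled libraries, where 23.3% of all tested genes were. The median absolute difference of the 8 members was 0.68 between the controls, against 0.45 for all tested genes, and 0.19 between the knockout-labelled libraries, against 0.52. Among all genes, the profiles nearest to S100a6 belonged to 9430083A17Rik (distance 0.12), Mir17hg (0.13) and A630023A22Rik (0.14). These were all low: Mir17hg, the host of a microRNA cluster, was listed at 2.6, 6.84, 6.87 and 2.87 TPM in the order control 1, control 2, CD95ko 1 and CD95ko 2. The nearest family member, S100a11, stood 544th.

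S100a10 and S100a11, the annexin-binding members of the second run, were abundant in all 4 libraries. S100a10, which does not need calcium and pairs with annexin A2, was listed at 1351 and 2213 TPM in the controls and at 1941 and 2127 TPM in the libraries labelled CD95ko 1 and CD95ko 2. Both of the latter lay between the controls (log2 fold change 0.23 ± 0.31 SE, 95% interval -0.48 to 0.95). S100a11, a partner of annexin A1, was listed at 546 and 902 TPM in the controls and at 1020 and 898 TPM in the libraries labelled CD95ko 1 and CD95ko 2. The groups overlapped by a small margin, since control 2 exceeded the library labelled CD95ko 2 (log2 fold change 0.45 ± 0.32 SE, 95% interval -0.28 to 1.17). In both genes control 1 was the lowest of the 4 libraries, and control 2 was above it by 1.64-fold and 1.65-fold.

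S100a8 and S100a9, the calprotectin genes, were mostly listed at 0. S100a8 was listed at 10.3 TPM in control 2 and at 0 in the other 3 libraries. S100a9 was listed at 0 in all 4 libraries. With depth unknown, a limit of detection cannot be given for either gene. Most of the neutrophil markers were listed at 0 in control 2 as elsewhere. The myeloid list as a whole was lowest there (48.5 TPM), and Cd68 made up 42.1 TPM of that sum. The source of the S100a8 value was not tested.

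The remaining family members were mostly listed at 0. Of 9 other S100 genes sought and found, 7 were listed at 0 in all 4 libraries, namely S100a2, S100a5, S100a7l2, S100b, S100g, S100z and a gene found under the older name S100a17 (now Tchhl1, a fused-type member). S100a7a, a relative of human psoriasin, was listed at 7.70 and 4.22 TPM in the controls and at 0 in both libraries labelled CD95ko (limma adjusted p = 0.147). S100a3, known from hair cuticle, was listed at 24.3, 28.9 and 29.5 TPM in control 1, control 2 and the library labelled CD95ko 1, and at 0 in the library labelled CD95ko 2. The 6 fused-type genes found, with Tchhl1 counted here again, carry an S100 domain in large proteins of the cornified skin layer. They were listed at 0 in all libraries except Tchh, at 0.20 and 0.88 TPM in the controls.

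Within 250 kb of the first run lie 10 protein-coding genes of other families, of which 9 were tested. None passed an adjusted p of 0.05. Groups did not overlap for 5 of the 9, all with higher values in the libraries labelled CD95ko, beside 29.2% of all tested genes. The nearest to S100a1, Chtop, which encodes a chromatin-bound factor of messenger RNA export, was listed at 163 and 119 TPM in the controls and at 128 and 76.2 TPM in the libraries labelled CD95ko, with overlap. Ilf2, which encodes a double-stranded-RNA-binding complex subunit, was listed at 51.0 and 43.3 TPM in the controls and at 79.3 and 75.9 TPM in the libraries labelled CD95ko (log2 fold change 0.71 ± 0.34 SE). Snapin, a vesicle trafficking gene, was listed at 23.4 and 23.8 TPM against 33.1 and 41.0 TPM. The sizes were below those of S100a14 and S100a16, the largest of the neighbours being Dennd4b at 0.90 ± 0.58 SE. None of the 7 neighbours found around the second run was tested, and 6 of these were listed at 0 in all libraries. The tested members of the first run lay between -0.51 (S100a4) and 2.10 (S100a14), and S100a13, between S100a1 and S100a14, was at -0.03.

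**Figure D4:**
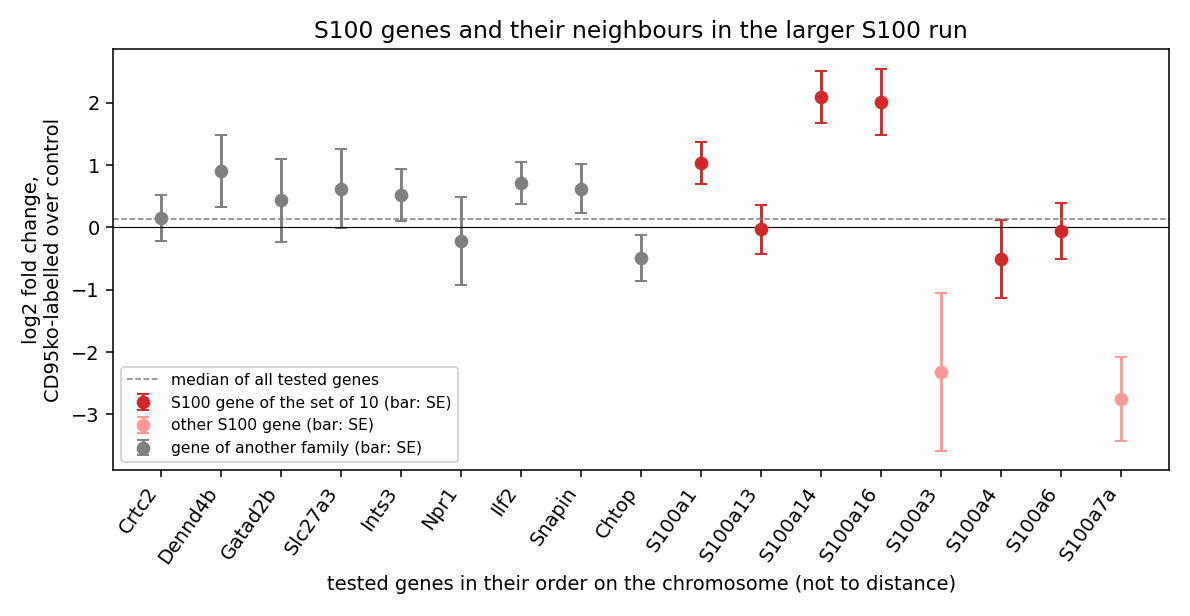
Log2 fold change (libraries labelled CD95ko over controls, bars are SE) of the tested genes around the first S100 run, in chromosomal order. S100a1, S100a14 and S100a16 stand above 1 while S100a13 among them is at -0.03, and the genes of other families lie between -0.49 and 0.90. S100a3 and S100a7a have libraries listed at 0, so the size of their values depends on the pseudocount.

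Partners and receptors of the S100 proteins were examined as lists. Of 39 binding-partner genes, 30 were tested, 0 passed an adjusted p of 0.05, and 11 were higher and 7 lower without overlap between the groups, beside 29.2% and 18.3% of all tested genes. An unadjusted p under 0.05 was reached by 7 with higher and 2 with lower values, beside 9.25% and 5.68% of all tested genes, and the median log2 fold change was 0.20 against 0.13 for all tested genes. Anxa2, the partner of S100a10, was listed at 940 and 1208 TPM in the controls and at 794 and 776 TPM in the libraries labelled CD95ko 1 and CD95ko 2. Its groups did not overlap, but the log2 fold change of -0.44 ± 0.28 SE did not pass the test (limma adjusted p = 0.488). Anxa1, the partner of S100a11, was listed at 1028 and 1098 TPM against 1255 and 2252 TPM, a difference of 0.66 ± 0.33 SE on the log2 scale (limma adjusted p = 0.387). Thus the annexin messages lay on opposite sides of the controls, neither past the test.

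Cacybp, which encodes the calcyclin-binding protein, was listed at 199 and 185 TPM in the controls and at 110 and 51.2 TPM in the libraries labelled CD95ko 1 and CD95ko 2. That is a log2 fold change of -1.34 ± 0.40 SE without overlap (limma adjusted p = 0.194), beside the near-equal group means of S100a6. Myh9, the heavy chain of the myosin that S100A4 binds, was listed at 182 and 102 TPM in the controls, 182 TPM in the library labelled CD95ko 1 and 477 TPM in the library labelled CD95ko 2. The library labelled CD95ko 1 was level with control 1, and the log2 fold change was 1.11 ± 0.48 SE (limma adjusted p = 0.326). Tubb5, a beta-tubulin gene, had the smallest p of the list, at 433 and 345 TPM against 1251 and 1630 TPM, with a difference of 1.88 ± 0.29 SE on the log2 scale (limma adjusted p = 0.0629). Plaur, the urokinase receptor, was listed at 83.1 and 162 TPM against 33.8 and 37.9 TPM (limma adjusted p = 0.147).

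Of 8 receptor genes, 5 were tested, 0 passed, and 3 were higher without overlap (29.2% of all tested genes), with a median log2 fold change of 0.28 against 0.13 for all tested genes. Ager, which encodes the S100 receptor RAGE, was listed at 0 in all 4 libraries, as were Emb and Cd36. Tlr4, a receptor for S100A8, was listed at 5.23 and 2.02 TPM in the controls and at 9.77 and 10.2 TPM in the libraries labelled CD95ko (limma adjusted p = 0.342). Bsg, encoding the matrix metalloproteinase inducer basigin, was the most abundant receptor, at 632 and 564 TPM against 745 and 1063 TPM (limma adjusted p = 0.399).

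Other EF-hand genes gave a measure of calcium-binding proteins outside the family. Of 40, 32 were tested and 0 passed, with 12 higher and 3 lower without overlap (29.2% and 18.3% of all tested genes) and a median log2 fold change of 0.32 against 0.13. Micu2, a gatekeeper of mitochondrial calcium uptake, was listed at 45.3 and 43.9 TPM in the controls and at 105 and 108 TPM in the libraries labelled CD95ko (limma adjusted p = 0.162). Of 18 transcription factor genes reported to regulate S100 genes, 14 were tested and 0 passed, with 2 higher and 3 lower without overlap (29.2% and 18.3% of all tested genes) and a median of -0.03. Rela, the NF-kB subunit, was listed at 159 and 147 TPM in the controls and at 85.9 and 52.9 TPM in the libraries labelled CD95ko (limma adjusted p = 0.197). Ctnnb1, which encodes beta-catenin, was listed at 221 and 187 TPM against 316 and 519 TPM (limma adjusted p = 0.234).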

How the data were processed

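Poly(A)-selected RNA of 4 cultures of 4T1 cells was sequenced, 2 libraries labelled control and 2 labelled CD95ko. The deposited tables pair each gene symbol with a TPM value, per the file headers. The submitters' processing notes name STAR 2.6.0, RSEM 1.3.0 and the build mm10. The annotation and strand setting are not given in the sources used here. Each library's TPM has the same sum, so depth is unknown and count tests were not applicable.

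Groups came from the sample titles. Genes with at least 1 TPM in at least 2 libraries were transformed to log2(TPM + 1) and fitted with limma 3.58.1 in R 4.3.3 (two-sided; eBayes with trend; Benjamini-Hochberg; threshold 0.05; no covariate). Fold changes on this scale understate the change of low genes. The fit was tested on simulated data.

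The members and lists were chosen with earlier results of these data known. Named are all 10 members, Fas, per list up to 3 genes with the smallest p and no overlap, direct partners of single members, and for S100a6 and S100a14 the 3 genes nearest in profile. Of the genes so chosen, 1 is left out here. S100a3, Chtop and the single myeloid and epithelial markers beyond this rule were named after their values were seen. Alternatives were a pseudocount of 0.1, no filter (all genes above 0 in any library), quantile normalization, the replicate block, eBayes without trend or robust, and each library left out. Median scaling of the fit was added after seeing the data.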

Additional observations from a re-analysis of the deposited data

How the results depend on the processing

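In limma 6 genes passed an adjusted p of 0.05 as reported. This count was 0 with a pseudocount of 0.1, 0 under quantile normalization, 0 without the filter, 0 without the variance trend and 0 under median scaling. At an unadjusted p under 0.05 these settings gave 1553, 1862, 1636, 1531 and 1832 genes. Robust eBayes gave 52 genes, and leaving out 1 library gave from 0 to 1034, the lone library being assumed to vary like the other group. The cause was not tested.

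None of the S100 genes passed in any setting with 4 libraries; S100a14 came nearest, with adjusted p-values from 0.0657 to 0.203. Leaving out 1 library gave from 4 to 7 of the 8 members not overlapping. In those settings 68.8% to 78.9% of all tested genes did not overlap, since fewer pairs must then hold. With 4 libraries this count was 3 as reported and 4 under quantile normalization (S100a11 joined as higher) and under median scaling (S100a13 joined as lower), beside 51.4% and 51.0% of all tested genes. The ratio of summed TPM ranged from 0.793 to 1.54. The log2 fold change of S100a6 turned to 0.009 under quantile normalization. On leaving out 1 library it ranged from -0.60 to 0.49 for S100a6, from -1.38 to 0.36 for S100a4, from -0.12 to 0.59 for S100a10 and from -0.35 to 0.29 for S100a13. S100a14, S100a16, S100a1 and S100a11 kept a positive sign in all these settings.

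Libraries with the same replicate number did not deviate together (correlation across genes -0.081), so the numbers were not treated as pairs. With the replicate block 2 genes passed, 1 of them among the 6, and 0 members. The planned count-based alternatives were not run, since the tables hold TPM.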
